A study of Mus musculus with 28 samples.

Results

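The genes described here are those for the receptors of glutamate and GABA, the main excitatory and inhibitory transmitters of the brain. They were taken by name: all gene names of the count table that start with Gria, Grid, Grik, Grin or Grm, or with Gabr and a subunit letter, followed by a number. This gave 41 of 28244 genes, 26 for glutamate receptors and 15 for GABA-A receptor subunits. By class they were 4 AMPA, 5 kainate, 7 NMDA and 2 delta subunits, 8 metabotropic glutamate (mGlu) receptors, and 6 alpha, 3 beta, 3 gamma and 3 rho subunits.

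The study asked how neural stem cells grown from tissues outside the central nervous system (peripheral NSCs, pNSCs) compare with NSCs of the brain, and poly(A) RNA was sequenced from 28 mouse samples in 11 groups. In the experiment that the study's methods tie to Nes-GFP reporter mice, Brain-NSC, Tail-pNSC, Lung-pNSC, Tail and Lung had 2 samples each, with the pNSCs grown from sorted GFP+ cells of the adult lung (4 to 6 weeks) and the postnatal tail (day 1 to 5). Sox2-GFP brain NSCs and Sox2-GFP lung pNSCs came from Sox2-GFP mice, with 3 samples each. Wnt1Cre-mTmG brain NSCs, Tail pNSCs and DRG pNSCs (from dorsal root ganglia), with 3 samples each, came from mice carrying Wnt1-Cre, which acts in the neural crest, and the mTmG reporter, and were set beside 3 samples of DRG NCSCs (neural crest stem cells), whose label names no transgene and gives NSC as the cell type and which the study describes as coming from adult wild-type ganglia. The study describes the Wnt1Cre-mTmG pNSCs as Tomato+ and GFP-, that is, not labelled by Wnt1-Cre. It adds that Wnt1 tracing also labels cells of the midbrain. Per the methods, single pNSC clusters were picked by hand and grown on with EGF and bFGF, so a group may be 1 line. The strain label is C57BL/6 throughout, whereas the methods give CD1 or CD1 and C3H mixtures as the wild-type background to which transgenic mice were bred. The Wnt1Cre-mTmG Tail and DRG pNSCs came from postnatal tissue, and the study's account of the Sox2-GFP lung pNSCs names postnatal lung, although its methods list adult lung as well. The age of the brain, Lung and Tail donors was not found for each group.

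AMPA, kainate and NMDA receptors are ion channels that open on binding glutamate, the delta subunits belong to the same family but mainly act as adhesion and signalling receptors at synapses, and mGlu receptors signal through G proteins. GABA-A receptors are chloride channels, most often built of alpha, beta and gamma subunits. Both transmitters also act on neural stem and progenitor cells, where GABA is known to restrain and glutamate to modulate proliferation.

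Counts assigned to genes ranged from 9808246 to 22637031 per sample, with Wnt1Cre-mTmG brain NSCs and DRG pNSCs at the low end. Replicates lay close together: over the 23 pairs of samples within a group, the chi-square of the counts per degree of freedom, which is 1 for sampling noise alone, was between 1.09 and 2.82, except for DRG NCSCs replicate 3 against the other two, at 16.8 and 21.02. Nothing in the labels says that replicates came from separate animals or cultures. The study's figure legends call them biological replicates, but whether the unit was an animal, a line or a culture was not found. The p-values therefore measure only the spread between these samples, which may not be that between animals. All 8 NSC and pNSC groups had all 7 NSC markers above 1 cpm (cpm is counts per 10 to the power 6 counts of a library, TMM-scaled over the 28 samples), with a summed level between 4395 and 6397 cpm against 86.5 to 316 cpm in Tail and Lung. In DRG NCSCs, 4 of the 7 NSC markers reached 1 cpm, and the 7 summed to 1443 to 1826 cpm. DRG NCSCs held the 6 crest and Schwann markers at 4255 to 4361 cpm. They also held fibroblast markers summing to 2784 to 3432 cpm, leukocyte markers summing to 543 to 573 cpm and the neuron marker Stmn2 at 248 cpm. Their neuron markers summed to 754 to 789 cpm, against 835 to 1814 cpm in the NSC and pNSC groups. In bulk samples, fewer cells of a type and less RNA per cell cannot be told apart.

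The chromosome 5 cluster of GABA-A receptor genes shows how far neighbouring members can differ, and 250 bases before a start of each of its 4 genes are therefore printed. The genes lie in the order Gabrg1, Gabra2, Gabra4 and Gabrb1 between bases 70751047 and 72149037 of GRCm38, and Gabra4 and Gabrb1 are transcribed away from each other with overlapping starts. Sequences are from RefSeq on GRCm38.p6, 5′ to 3′ in the direction of the gene, and capitals mark GGGCGG on either strand, the core of a GC box.
Gabrg1, chr5:70842618-70842867, minus strand: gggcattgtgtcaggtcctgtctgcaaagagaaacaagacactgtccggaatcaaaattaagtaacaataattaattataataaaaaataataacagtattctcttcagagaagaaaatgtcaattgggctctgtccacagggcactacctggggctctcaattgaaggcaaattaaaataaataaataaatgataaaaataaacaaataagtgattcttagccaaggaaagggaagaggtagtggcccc
Gabra2, chr5:71095850-71096099, minus strand: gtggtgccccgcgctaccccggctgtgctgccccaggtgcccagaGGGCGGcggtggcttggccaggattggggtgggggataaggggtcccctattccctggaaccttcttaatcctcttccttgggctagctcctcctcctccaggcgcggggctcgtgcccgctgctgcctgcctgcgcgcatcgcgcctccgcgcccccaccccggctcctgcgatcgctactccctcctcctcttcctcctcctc
Gabra4, chr5:71658309-71658558, minus strand: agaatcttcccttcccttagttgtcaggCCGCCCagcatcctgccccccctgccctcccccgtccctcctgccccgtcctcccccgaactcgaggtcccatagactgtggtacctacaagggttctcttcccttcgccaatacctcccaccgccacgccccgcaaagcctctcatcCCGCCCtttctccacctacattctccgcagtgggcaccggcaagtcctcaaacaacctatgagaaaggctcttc
Gabrb1, chr5:71657671-71657920, plus strand: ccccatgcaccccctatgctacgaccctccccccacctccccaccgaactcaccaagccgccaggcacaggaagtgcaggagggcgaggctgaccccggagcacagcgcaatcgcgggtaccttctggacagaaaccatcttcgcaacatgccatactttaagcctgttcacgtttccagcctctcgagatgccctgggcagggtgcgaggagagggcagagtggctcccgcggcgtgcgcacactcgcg
The stretch of Gabrg1 has a GC content of 35.6% with 1 CpG dinucleotide. The stretches of Gabra2, Gabra4 and Gabrb1 have GC contents of 70.0%, 61.2% and 64.4% with 18, 12 and 18 CpG dinucleotides. Gabrb1 is printed at its start next to Gabra4, and the 250 bases before its second RefSeq start (chr5:71699682-71699931) have a GC content of 50.8% with 6 CpG dinucleotides. Of the 41 members, 27 had a promoter in the RefSeq table, with 34 starts in all. In the window from 250 bases before to 50 after the start, GGGCGG on either strand was found at 15 of these 34 starts (44.1%) against 35.7% of all 32851 promoters, and TATAAA at 4 (11.8%) against 13.6%. The letters TTCAGCACC, part of a site bound by the repressor REST, were found on either strand at 1 member start, that of Grm2, and at 0.371% of all promoters. CAGCTG was found at 0 of the 34 starts against 16.3% of all promoters, and ACAAAG at 2 (5.88%) against 18.7%. These shares were not tested.

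Of the 41 members, 36 reached a group mean of 1 cpm in at least 1 of the 11 groups, 13 did so in all 8 NSC and pNSC groups, and 5 stayed below 1 cpm in every group. The 5 low genes were Gabra6, Gabrr1, Gabrr3, Grm2 and Grm6, with group means of at most 0.216 cpm. A count of 3, used as the floor below which no level is read, corresponds to 0.133 to 0.306 cpm at these depths. Lung had the fewest members at 1 cpm or more (9), and DRG NCSCs the most (28), against 19 to 27 in the NSC and pNSC groups.

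**Figure D1:**
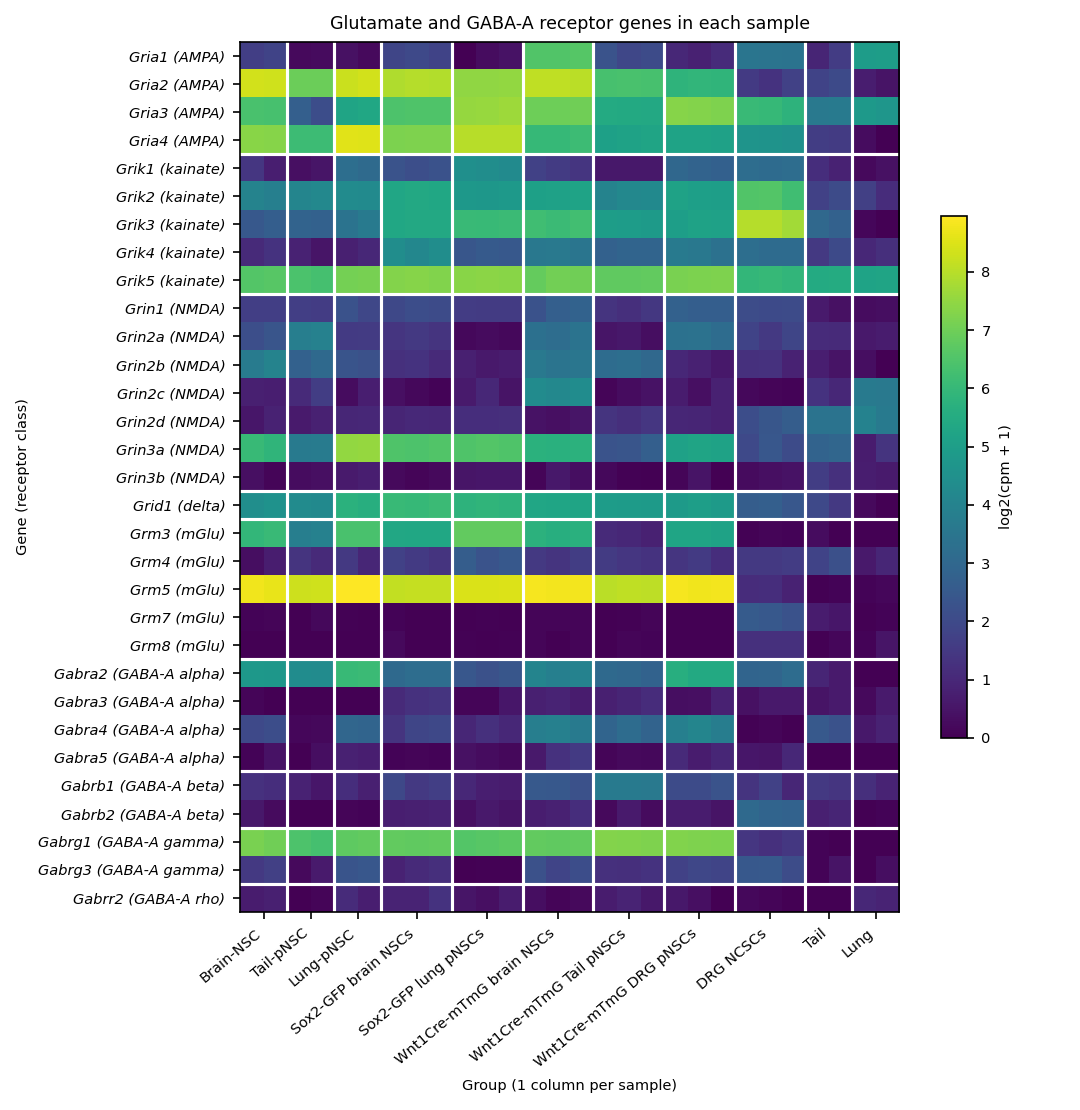
Level of 31 members that reached 1 cpm in a group, as log2(cpm + 1) in colour, with 1 row per gene (receptor class in brackets) and 1 column per sample, white lines between groups and classes. Grm5 and Gabrg1 are high in all 8 NSC and pNSC groups and near 0 in Tail and Lung, while rows such as Gria1, Grik1 and Grin2c change between NSC groups.

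3 members kept the steadiest level among those at 1 cpm or more in all 8 NSC and pNSC groups. Their group means spanned less than 2.1 times from the lowest to the highest. The share of all genes within that span was not counted. Grm5 encodes mGluR5, a receptor coupled to Gq that is known from neural progenitors and young astrocytes. It was counted at 433 and 410 cpm in Brain-NSC, 311 and 321 cpm in Tail-pNSC, and 499 and 489 cpm in Lung-pNSC. In the Sox2-GFP experiment it stood at 281, 292 and 288 cpm in brain NSCs and 348, 354 and 358 cpm in lung pNSCs. All these samples were far above DRG NCSCs (1.20, 1.23 and 0.816 cpm), Tail (0 and 0.0638 cpm) and Lung (0.0544 and 0.125 cpm). The highest over the lowest mean among the 8 groups was 1.84 for Grm5. It was 1.85 for Gabrg1, the gene of the gamma 1 subunit, whose means ran from 82.8 cpm in Tail-pNSC to 153 cpm in Wnt1Cre-mTmG Tail pNSCs. It was 2.05 for Grik5, the gene of a kainate subunit that needs partner subunits to form a channel, with means of 81.2 to 166 cpm. Grik5 differed from Grm5 and Gabrg1 in being present in every group, at 60.5, 63.7 and 59.4 cpm in DRG NCSCs, 43.3 and 44.8 cpm in Tail and 36.2 and 36.7 cpm in Lung. The log2 fold change of Gabrg1 in tail pNSCs over brain NSCs still differed by 1.17 between the Nes-GFP and Wnt1Cre-mTmG experiments. That difference was called in the test described below.

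**Figure D2:**
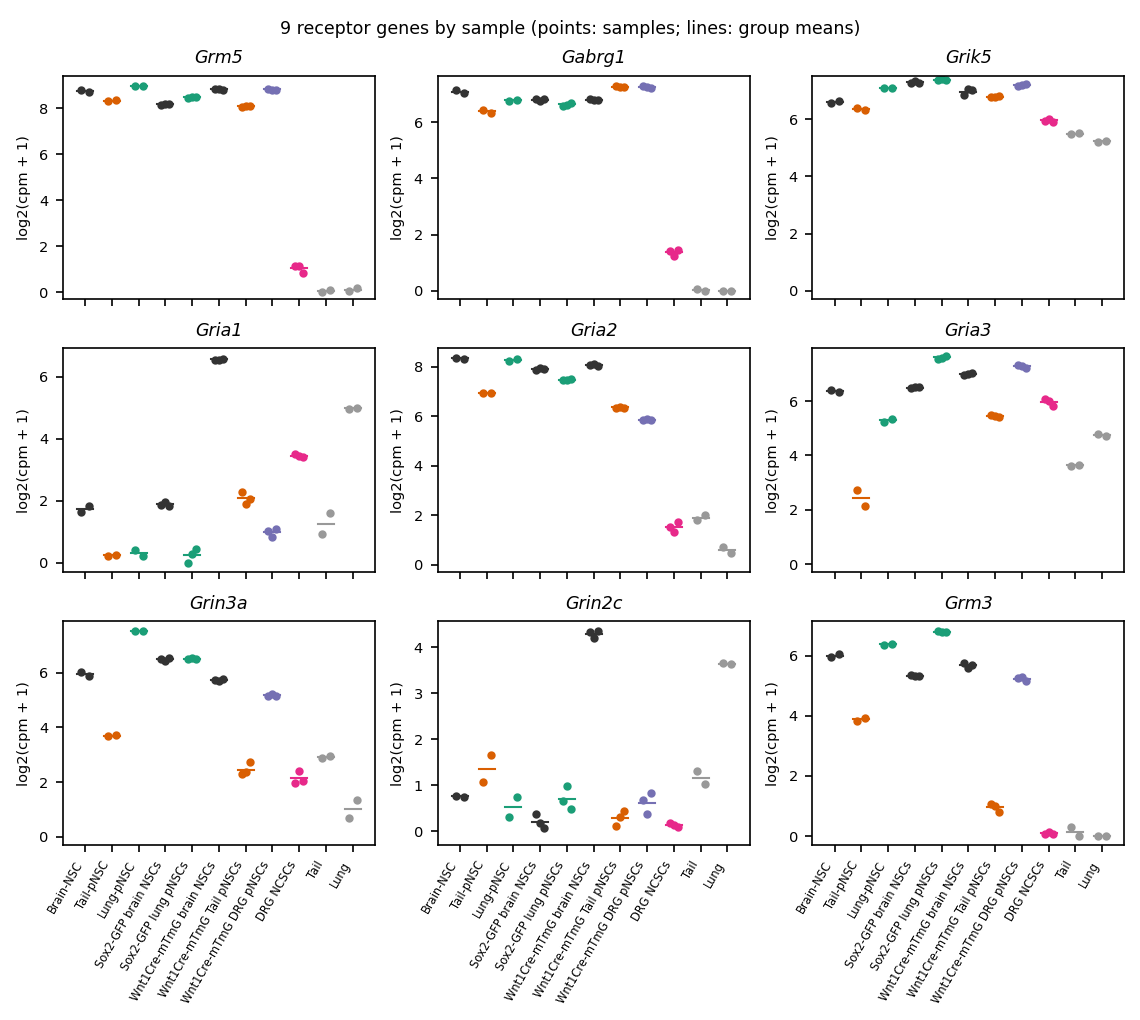
Level of 9 members by sample, as log2(cpm + 1); points are samples, short lines group means, with brain NSCs in black, tail pNSCs in orange, lung pNSCs in green, DRG pNSCs in violet, DRG NCSCs in pink and tissue cells in grey. The upper panels hold the 3 steady genes, whose NSC and pNSC points lie near the same height, and the lower panels hold genes that change between groups, such as Gria1, which is highest in Wnt1Cre-mTmG brain NSCs.

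Levels of different genes were compared per kilobase of exon (cpm per kb), and each class was then described by the share of its members in the sum of the class. In the 8 NSC and pNSC groups, Gabrg1 made up at least 97.5% of the gamma subunits. Among the beta subunits of these groups, Gabrb1 had its highest share in Wnt1Cre-mTmG Tail pNSCs, at 16.7%. Among the alpha subunits, Gabra2 led in 6 of these groups, with 58.1% to 97.5%, whereas Gabra4 led in Wnt1Cre-mTmG brain NSCs (45.6% ± 3.7, SD, n = 3) and Wnt1Cre-mTmG Tail pNSCs (48.9% ± 2.7, SD, n = 3). In the first of these, Gabra2 held 41.1% ± 3.9, so that their order there lies close to the spread between samples.

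Grin3a, whose product GluN3A lowers calcium entry through NMDA receptors, led the NMDA class in all 8 groups, from 31.9% in Wnt1Cre-mTmG Tail pNSCs to 93.6% in Lung-pNSC. In Wnt1Cre-mTmG Tail pNSCs the NMDA sum was only 1.16 cpm per kb. The Grin3a share there ran from 28.4% to 36.3% between samples, so its lead is less certain. Grin1, the subunit that NMDA receptors are built on, was low by comparison, with 2.13% to 13.7% of the class in the 8 groups and means of 1.54 to 5.58 cpm. An antisense gene, Grin1os, shares 1307 exon bases with Grin1, and the library kit does not keep strand, so reads in the shared part cannot be told apart. In the mGlu class, Grm5 held 48.1% to 97.6%. Grm3, an inhibitory mGlu receptor, was slightly ahead of it in Sox2-GFP lung pNSCs (50.7% ± 0.41, SD, n = 3). By cpm per kb, the leading AMPA subunit changed from group to group. It was Gria4 in 6 of the 8 groups, Gria2 in Wnt1Cre-mTmG brain NSCs (31.0% ± 0.96) and Gria3 in Wnt1Cre-mTmG DRG pNSCs (62.5% ± 0.85). This order depends on exon length, taken over all annotated exons, which was 15548 bases for Gria2 and 6305 for Gria4. By cpm alone, Gria2 exceeded Gria4 in Brain-NSC, Tail-pNSC, Sox2-GFP brain NSCs and Wnt1Cre-mTmG Tail pNSCs. Gria4 exceeded Gria2 by cpm in Lung-pNSC and Sox2-GFP lung pNSCs. In Wnt1Cre-mTmG Tail pNSCs the samples of Gria4 (5.54 ± 0.24 cpm per kb) and Gria2 (5.22 ± 0.11 cpm per kb) overlapped, so that the lead of Gria4 there lies within the spread.

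DRG NCSCs had another makeup. Grik3 led the kainate class there with 55.9% ± 1.2 (SD, n = 3). Grm7 led the mGlu class with 54.6%, but of a sum of only 1.37 cpm per kb, against 26.8 to 75.5 cpm per kb in the NSC and pNSC groups. The gamma subunits had a summed level of 0.890 cpm per kb, against 10.6 to 19.5 cpm per kb in the NSC and pNSC groups. In Lung, Gria1 held 65.3% ± 1.8 (SD, n = 2) of an AMPA sum of 7.75 cpm per kb, and Grin2c 49.7% ± 2.9 of the NMDA sum.

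**Figure D3:**
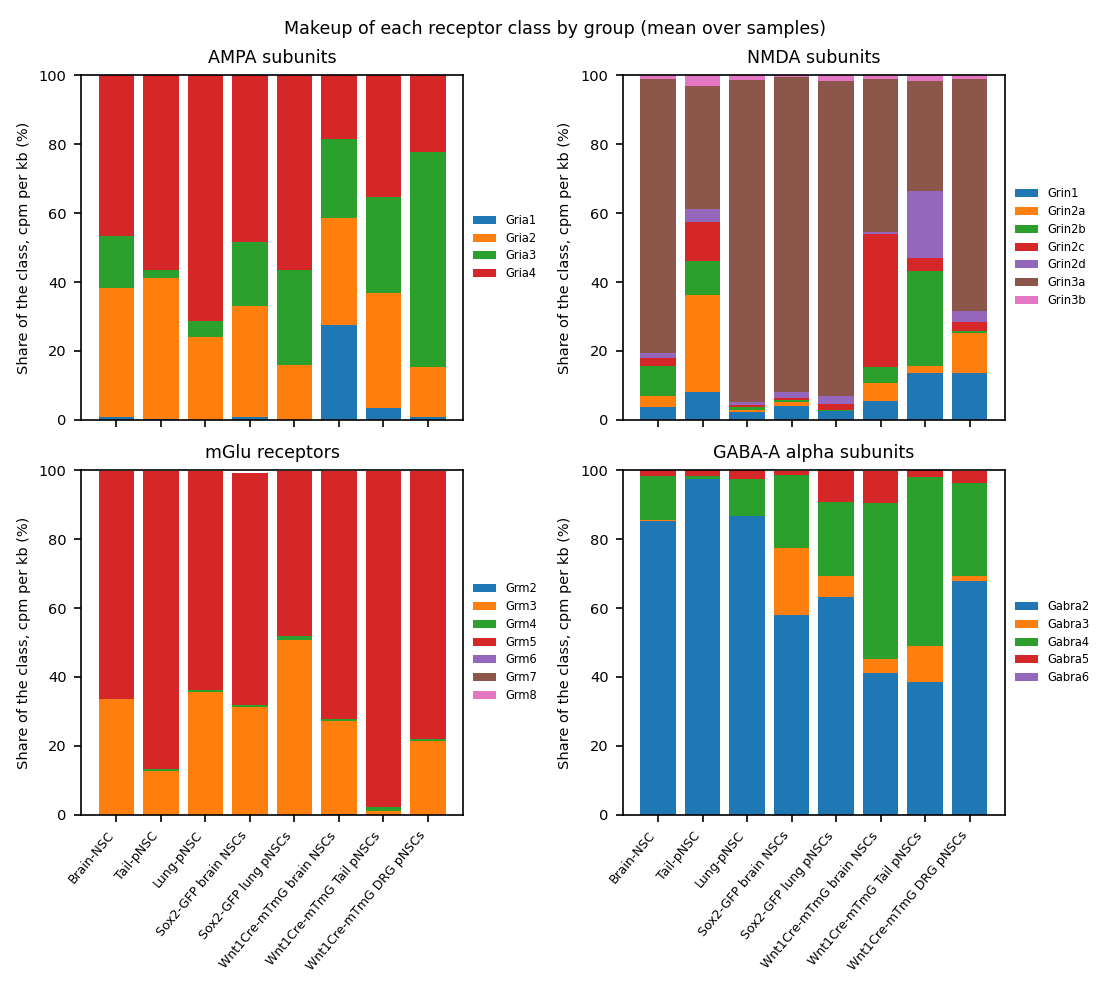
Share of each gene in its receptor class, in percent of the summed cpm per kb of exon, for the AMPA, NMDA and GABA-A alpha subunits and the mGlu receptors; bars are means over the samples of the 8 NSC and pNSC groups named below, and members not drawn leave a bar short of the top. Grin3a fills most of the NMDA bars of Brain-NSC, Lung-pNSC and the Sox2-GFP groups (79.6% to 93.6%), and Grm5 and Grm3 together fill most of the mGlu bars of the 8 NSC and pNSC groups, with Grm5 at 48.1% to 97.6%.

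Each set of pNSCs was then compared with the brain NSCs of the same experiment, the question being how far receptor genes of cells from another tissue match those of the brain. A member was called when its adjusted p was under 0.05 (edgeR quasi-likelihood test, Benjamini-Hochberg over all genes tested) with a log2 fold change of at least 1 in size. Tail-pNSC and Lung-pNSC share their Brain-NSC samples, and Wnt1Cre-mTmG Tail and DRG pNSCs share theirs, so these comparisons are not independent.

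In Tail-pNSC, 4 of 31 tested members were higher and 14 lower than in Brain-NSC, where 4.31% of all genes tested were called higher and 6.59% lower (10.9% in all), and the median log2 fold change was -0.71 over the members and 0.00 over all genes. The AMPA genes all fell. Gria3 was at 5.54 and 3.35 cpm in Tail-pNSC against 83.2 and 80.1 cpm in Brain-NSC, a log2 fold change of -4.22 ± 0.10 (SE). Gria1, the subunit best known from synaptic plasticity, went from 2.13 and 2.53 cpm to 0.171 and 0.203 cpm, near the floor (-3.59 ± 0.45). Gria2, which makes AMPA channels impermeable to calcium, went from 326 and 322 cpm to 124 cpm in both samples (-1.39 ± 0.04), and Gria4 fell by less (-1.23 ± 0.04). Grin2a, an NMDA subunit of mature neurons, was higher (13.3 and 14.4 against 3.5 and 4.09 cpm; 1.87 ± 0.17). Grin2c (1.22 ± 0.37) and Grm4 (1.55 ± 0.46) were also called higher, but without Tail-pNSC replicate 2 the Grin2c call was lost (0.64), as was that of Grm4 without Brain-NSC replicate 1 (1.05). Where a group held at most 3 counts in every sample, summed counts per library total were compared, with an exact 95% interval for counting error. Gabra4 had 5 counts over both Tail-pNSC samples and 126 over both Brain-NSC samples, a 23.6-fold difference (9.85 to 74.0). Gabrb2 had no counts in Tail-pNSC and was at least 2.17-fold lower, taking 3 counts per library as the floor. Without Brain-NSC replicate 1 its call was lost (fitted log2 fold change -4.87, which depends on the prior count). Gabrg3 (-2.42 ± 0.44), Grin3a (-2.35 ± 0.08) and Grm3 (-2.19 ± 0.08) were lower too. Astrocyte markers summed to 10.3 to 12.3 cpm in Tail-pNSC and to 127 to 128 cpm in Brain-NSC; their part in these differences was not tested.

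In Lung-pNSC the balance was the other way, with 12 of 31 tested members higher and 4 lower than in Brain-NSC, where 4.56% of all genes were called higher and 4.15% lower (8.71% in all), and a median of 0.44 against 0.00 over all genes. Grik1, a kainate subunit, was at 8.40 and 7.59 cpm against 1.67 and 0.682 cpm (2.76 ± 0.25). Grin3a rose from 64.8 and 58.0 cpm to 183 and 186 cpm (1.58 ± 0.05), and Gria4 from 166 and 160 to 380 and 367 cpm (1.19 ± 0.03). Gabra2, the leading alpha subunit, was 26.6 and 25.6 cpm in Brain-NSC and 64.6 and 68.0 cpm in Lung-pNSC (1.34 ± 0.07). Gabra5 (1.81 ± 0.66), Grm4 (1.63 ± 0.45) and Grin3b (1.59 ± 0.66) were called from low counts. The call of Gabra5 was lost in DESeq2, with no low-count filter, and without Brain-NSC replicate 1 (1.05), Lung-pNSC replicate 1 (1.71) or Lung-pNSC replicate 2 (1.89). That of Grm4 was lost without Brain-NSC replicate 1 (1.13) or Lung-pNSC replicate 1 (1.07). That of Grin3b was lost in DESeq2 (1.64) and without Brain-NSC replicate 2 (0.99), Lung-pNSC replicate 1 (1.71) or Lung-pNSC replicate 2 (1.47). The 4 lower genes were Gria1 (-3.16 ± 0.41), Grin2b (-1.81 ± 0.16), Gria3 (-1.11 ± 0.07) and Grin2a (-1.01 ± 0.24), the last lying at the fold limit and lost under 7 of the alternatives. Astrocyte markers summed to 77.9 to 84.9 cpm in Lung-pNSC against 127 to 128 cpm in Brain-NSC, and 4 of 7 neuron markers were called lower (median log2 fold change of the 7, -1.08), with sums of 1650.5 to 1655 against 1733 to 1814 cpm; their part in these differences was not tested.

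In Wnt1Cre-mTmG Tail pNSCs, 3 of 34 tested members were higher and 17 lower than in the brain NSCs of that experiment, where 9.16% of all genes were called higher and 9.05% lower (18.2% in all), with a median of -1.15 against 0.00. The largest differences were in genes with a high level in these brain NSCs. Grin2c, an NMDA subunit of cerebellar granule cells and of astrocytes, was at 19.0, 17.3 and 19.4 cpm in brain NSCs and at 0.0874, 0.230 and 0.352 cpm in Tail pNSCs (-6.36 ± 0.22). Grm3 went from 53.1, 47.9 and 50.7 cpm to 1.09, 1.01 and 0.755 cpm (-5.70 ± 0.11), and Gria1 from 92.5, 92 and 95 cpm to 3.89, 2.76 and 3.12 cpm (-4.83 ± 0.08). Grin2a (-4.45 ± 0.21) and Grin3a (-3.52 ± 0.11) followed. Grin2d was higher (2.05 ± 0.36), as was Gabrb1, at 11.8, 12.1 and 11.3 cpm against 4.73, 4.55 and 3.72 cpm (1.44 ± 0.16). Fibroblast markers summed to 372 to 383 cpm in these Tail pNSCs and to 10.3 to 11.97 cpm in the brain NSCs, and astrocyte markers to 97.4 to 102 cpm against 1125 to 1150 cpm; their part in these differences was not tested.

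Wnt1Cre-mTmG DRG pNSCs had the fewest calls, 4 of 34 higher and 6 lower, where 3.12% of all genes were called higher and 6.41% lower (9.53% in all), with a median of -0.34 against 0.01. Gria1 fell the most, to 1.02, 0.788 and 1.15 cpm (-6.55 ± 0.12), followed by Grin2c at 0.593, 0.296 and 0.769 cpm (-5.04 ± 0.22) and Grin2b, the NMDA subunit of the developing brain, from 11.4, 9.87 and 10.4 cpm to 1.02, 0.788 and 0.481 cpm (-3.76 ± 0.22). Gria2 was at 56.5, 58.4 and 57.5 cpm against 272, 274 and 264 cpm (-2.23 ± 0.05). Grik1 (1.69 ± 0.17) and Gabra2 (1.60 ± 0.09) were higher. Grin2d (1.25 ± 0.46) was called too, but leaving out any 1 of the 6 samples ended its call (1.13 to 1.39). Astrocyte markers summed to 175 to 181 cpm in DRG pNSCs; their part in these differences was not tested.

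In Sox2-GFP lung pNSCs, 6 of 31 tested members were higher and 10 lower than in Sox2-GFP brain NSCs, where 5.76% of all genes were called higher and 9.99% lower (15.7% in all), with a median of -0.29 against 0.00. Grik1 was at 20.8, 20.03 and 18.5 cpm against 3.92, 3.42 and 3.79 cpm (2.42 ± 0.10). Grm3, at 112, 110 and 111 cpm against 40.1, 39.3 and 39.2 cpm (1.49 ± 0.04), and Gria3, at 188, 192 and 202 cpm against 87.4, 90.0 and 89.8 cpm (1.12 ± 0.03), were higher in all samples. Gria1 was lower (-3.72 ± 0.31), as were Grin2a (-3.37 ± 0.40), Gabra3 (-2.63 ± 0.39) and Grik4 (-2.05 ± 0.10). The lung pNSC means of Gria1 (0.196 cpm), Grin2a (0.154 cpm) and Gabra3 (0.211 cpm) lay near the floor. Gabrg3 had 2 counts over the lung pNSC samples and 62 over the brain NSC samples (34.6-fold, 9.19 to 292). Grin2c (2.01 ± 0.49) and Grm4 (1.24 ± 0.17) were also higher in lung pNSCs. The brain NSC mean of Grin2c (0.158 cpm) lay near the floor, so the size of its rise is uncertain. Astrocyte markers summed to 80.0 to 82.3 cpm in lung pNSCs and to 915 to 921 cpm in brain NSCs; their part in these differences was not tested.

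**Figure D4:**
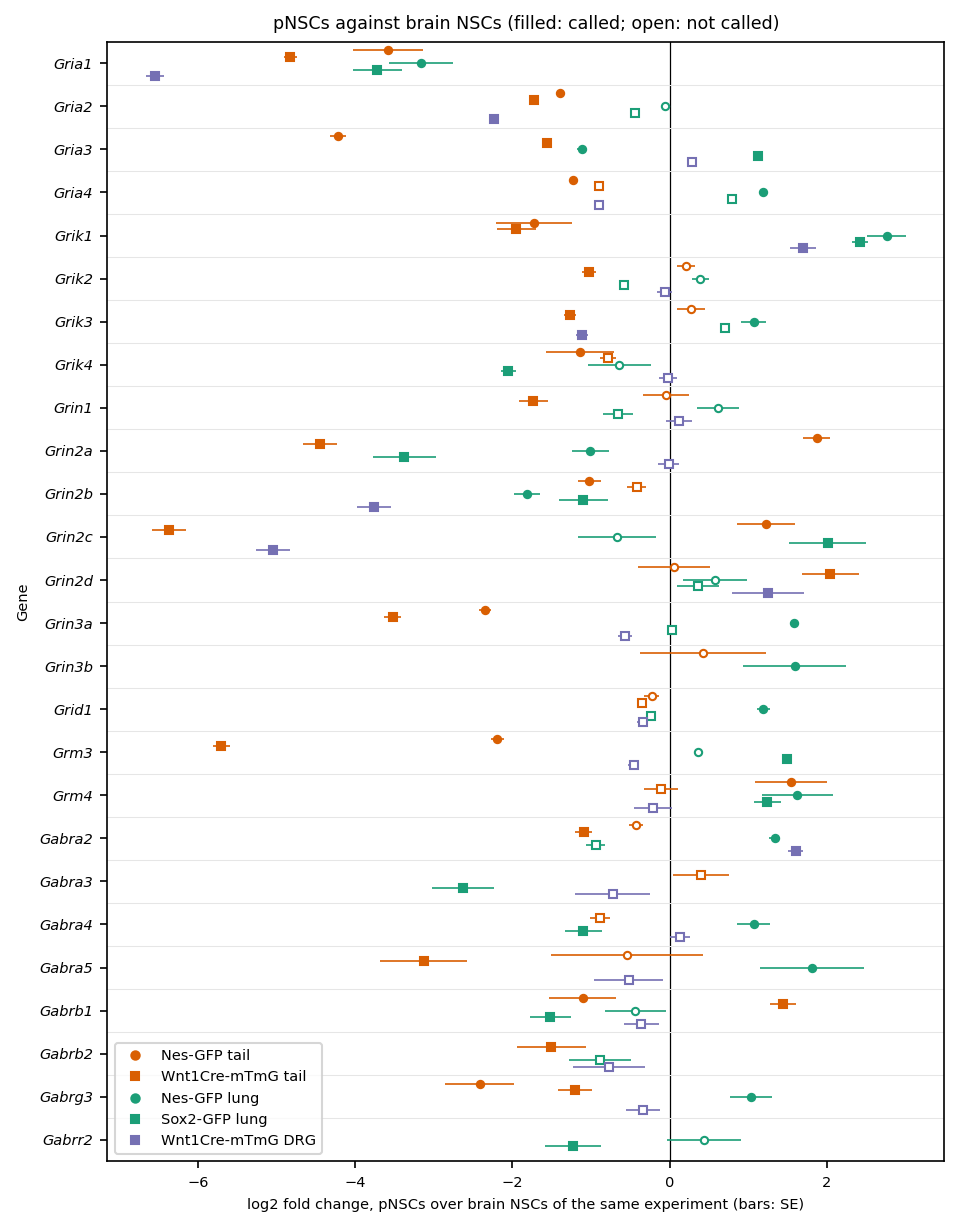
Log2 fold change of members in pNSCs over the brain NSCs of the same experiment, with SE bars, for the 5 comparisons; filled symbols were called, open symbols were not, and values with a group at or under 3 counts are left out. Gria1 lies to the left in all 5 comparisons (-6.55 to -3.16), and Grik1 to the left for tail pNSCs and to the right for lung and DRG pNSCs (1.69 to 2.76).

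Set side by side, Gria1 was called lower in all 5 comparisons, whereas Grm5, Gabrg1 and Grik5 stayed within the fold limit, with log2 fold changes between -0.74 and 0.30 for Grm5, -0.71 and 0.47 for Gabrg1, and -0.24 and 0.51 for Grik5. Grm5, Gabrg1 and Grik5 had been named for their small span over the same groups, so that they stayed within the limit was nearly fixed by that choice. The shares of all genes with such patterns over the 5 comparisons were not counted. In the Nes-GFP and Sox2-GFP experiments Gria1 was low in brain NSCs and near the floor in pNSCs, so the size of those falls is uncertain. Grin2b was called lower in 4, from -3.76 to -1.02, and had -0.42 in Wnt1Cre-mTmG Tail pNSCs. The call in Tail-pNSC was lost without Tail-pNSC replicate 1 (-0.88) or Brain-NSC replicate 2 (-0.86), and that in Sox2-GFP lung pNSCs without replicate 2 of the lung pNSCs (-0.98) or of the brain NSCs (-0.998). Grik1 was called in all 5, lower in the tail pNSCs of both experiments (-1.72 and -1.95) and higher in the lung and DRG pNSCs (1.69 to 2.76); without Brain-NSC replicate 1 the call in Tail-pNSC was lost (-0.95). Grm3 and Grin3a were called lower in the tail pNSCs of both experiments and lower in none of the other 3, with Grm3 higher in Sox2-GFP lung pNSCs and Grin3a higher in Lung-pNSC.

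Whether the same tissue of origin went with the same difference from the brain in both experiments was tested on the difference itself, in 1 fit over the 28 samples. For tail pNSCs, 18 of 36 tested members had a log2 fold change that differed between the Nes-GFP and the Wnt1Cre-mTmG experiments by 1 or more (7 higher in the second, 11 lower), where 8.96% of all genes were called higher and 7.05% lower (16% in all), and 9 of the 18 had opposite signs. Grin2c was 1.22 in the first and -6.37 in the second, a difference of -7.60 ± 0.51, and Grin2a was 1.87 and -4.45 (-6.32 ± 0.24). Gria3 fell in both, by 4.22 and 1.57 on the log2 scale, and the difference of 2.65 ± 0.13 was called. Gabrb1 was -1.11 and 1.44 (2.55 ± 0.43). For lung pNSCs, 15 of 36 members differed between the Nes-GFP and the Sox2-GFP experiments (3 higher in the second, 12 lower), where 5.89% of all genes were called higher and 8.24% lower (14.1% in all), and 10 of the 15 had opposite signs. Gabra2 was 1.34 and -0.94 (-2.29 ± 0.14), and Gria3 -1.10 and 1.12 (2.23 ± 0.09). Grin3a was 1.59 in the first and 0.03 in the second (-1.55 ± 0.09). Opposite signs were counted whether or not either fold change was itself called. Their share among all genes whose difference was called was not counted, so these counts show nothing particular to the members.

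**Figure D5:**
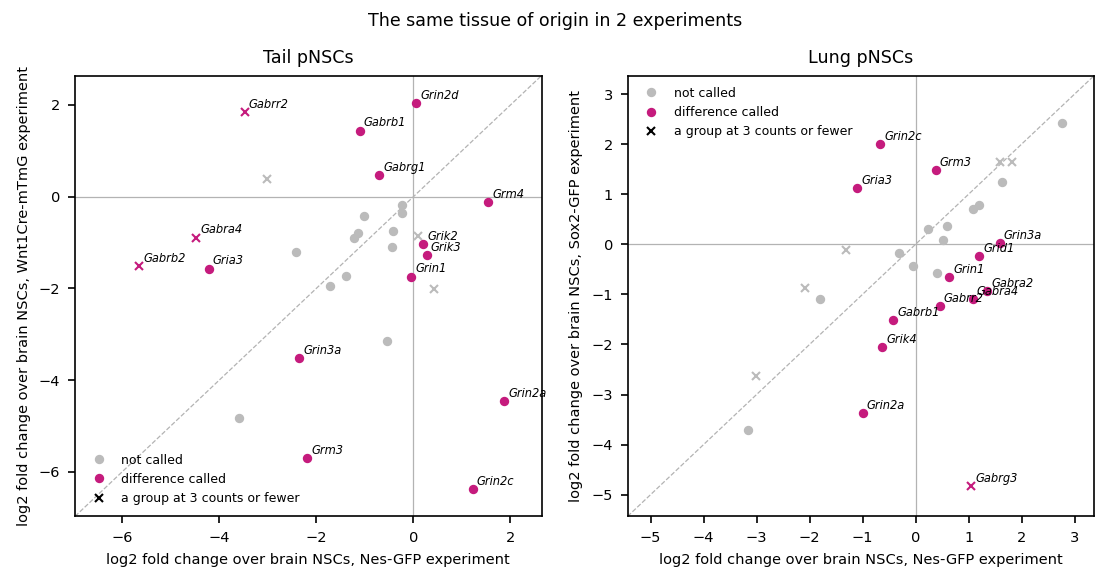
Log2 fold change of tested members over brain NSCs in the Nes-GFP experiment (horizontal) and in a second experiment (vertical), for tail pNSCs on the left and lung pNSCs on the right; named points differ between the experiments by the test, crosses have a group at 3 counts or fewer, and the dashed line marks equal values. Grin2c and Grin2a lie far below the line for tail pNSCs, and Grin2a and Gabra2 lie below it for lung pNSCs.

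The brain NSCs that serve as controls were compared among the experiments as well. Against Brain-NSC, 15 of 36 tested members were higher and 2 lower in Wnt1Cre-mTmG brain NSCs, where 9.12% of all genes were called higher and 3.35% lower (12.5% in all), and the median was 1.02. Gria1 was 92.5, 92 and 95 cpm against 2.13 and 2.53 cpm (5.31 ± 0.13), and Grin2c 19.0, 17.3 and 19.4 cpm against 0.710 and 0.682 cpm (4.73 ± 0.24). Grik3 (3.85 ± 0.11) and Grik4 (3.03 ± 0.19), kainate subunits, were higher as well, and Gria4 was lower (-1.32 ± 0.05). In Sox2-GFP brain NSCs, 10 were higher and 4 lower than in Brain-NSC, where 11.9% of all genes were called higher and 7.09% lower (19% in all), and the median was 0.53. Grik4 (3.83 ± 0.17) and Grik3 (3.02 ± 0.11) were higher here too, while Grin2b was lower (-3.35 ± 0.18). Grin2c (-2.11 ± 0.58, to a level near the floor), Gabra2 (-1.72 ± 0.09) and Grin2a (-1.19 ± 0.18) were lower too. Gabra3 had 2 counts over the Brain-NSC samples and 79 over the Sox2-GFP brain NSC samples (28.4-fold, 7.6 to 238).

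Between the Wnt1Cre-mTmG and Sox2-GFP brain NSCs, 8 members were higher and 5 lower, where 7.68% of all genes were called higher and 7.83% lower (15.5% in all), and the higher genes were led by Grin2c (6.84 ± 0.27) and Gria1 (5.10 ± 0.11). Summed astrocyte markers were 127 to 128 cpm in Brain-NSC, 915 to 921 cpm in Sox2-GFP and 1125 to 1150 cpm in Wnt1Cre-mTmG brain NSCs. In Sox2-GFP brain NSCs Gria1 was at 2.65, 2.90 and 2.52 cpm and Grin2c at 0.288, 0.130 and 0.0574 cpm. These Grin2c levels lie near the floor, so the size of its difference is uncertain. The part of astrocyte markers in the differences of Gria1 and Grin2c was not tested. Line, reporter, age and experiment cannot be told apart for these groups.

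Against the cells of the tissue of origin, the question was which receptor genes set pNSCs apart from the tissue they were grown from. In Tail-pNSC, 13 of 31 members were higher and 11 lower than in Tail, where 14.1% of all genes were called higher and 32.6% lower (46.7% in all), with a median of 0.80 against -0.16 over all genes. Grm5 had 1 count over both Tail samples and 11771 over both Tail-pNSC samples, and Gabrg1 had 1 and 3075, so that the intervals of these ratios began at 2047 and 534. Gria2 (5.42 ± 0.08) and Gria4 (5.00 ± 0.10) were higher too, as was Grm3, which was at 0.225 and 0 cpm in Tail, too low for an exact fold. Lower in Tail-pNSC were Grin2d, an early NMDA subunit, at 0.571 and 0.760 against 9.55 and 9.76 cpm (-3.92 ± 0.26), Gabrb2 and Gabra3, with no counts in Tail-pNSC (at least 5.32-fold and 3.17-fold lower), Gabra4 (29.5-fold, 12.4 to 92.3), Gria1 (-2.97 ± 0.52) and Grin3b (-2.74 ± 0.52). Grin3b shares 1059 of its exon bases with Tmem259, and reads in that part cannot be told apart.

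In Lung-pNSC, 20 of 31 members were higher and 4 lower than in Lung, where 20.2% of all genes were called higher and 34.9% lower (55% in all), with a median of 3.77 against -0.15. In Sox2-GFP lung pNSCs, 20 of 31 were higher and 5 lower than in the same Lung samples, where 21.3% were called higher and 34.9% lower (56.3% in all), with a median of 2.88 against -0.12. Gabrg1 and Grm3 had no counts in Lung: Gabrg1 was at least 604-fold and 554-fold higher in Lung-pNSC and Sox2-GFP lung pNSCs, and Grm3 at least 459-fold and 625-fold. Grm5 had 3 counts over both Lung samples, and the ratios were 5880 (2012 to 28513) and 4351 (1488 to 21098). Gria4 was called higher in both as well, from 0.217 and 0 cpm in Lung, too low for an exact fold. Gria1 went the other way: Lung held it at 30.1 and 31.0 cpm, and its log2 fold changes were -6.89 ± 0.24 and -7.23 ± 0.18. Grin2c, at 11.6 and 11.3 cpm in Lung, was lower in both as well (-4.73 ± 0.28 and -4.15 ± 0.20), as was Grin2d (-3.79 ± 0.22 and -3.40 ± 0.16).

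DRG NCSCs, crest cells of dorsal root ganglia that differed from the DRG pNSCs in donor age and genotype, were set beside the 3 Wnt1Cre-mTmG cultures. Against brain NSCs, 9 of 34 members were higher and 19 lower, where 22.1% of all genes were called higher and 14.8% lower (36.9% in all), with a median of -1.04 against 0.01; without replicate 3, the library that stood apart, 9 were higher and 17 lower. Grm5 (-8.65 ± 0.07), Gria2 (-7.15 ± 0.07) and Gabrg1 (-6.11 ± 0.07) were lower. Grm3 had 4 counts over the NCSC samples and 1689 over the brain NSC samples, an 803-fold difference (313 to 2950). The higher genes were of other kinds. Grm7 and Grm8, mGlu receptors of mature neurons, were at or under 3 counts in every brain NSC sample. Grm7 was at 4.95, 4.49 and 3.79 cpm in DRG NCSCs, with 267 counts against 3 (46.8-fold, 15.9 to 228), and Grm8 followed (21.6-fold, 5.78 to 181). Grin2d (3.54 ± 0.30), Gabrb2 (2.88 ± 0.25) and the kainate genes Grik1 (2.05 ± 0.15), Grik3 (1.73 ± 0.06) and Grik2 (1.34 ± 0.08) were higher. Of 7 neuron markers, 6 were higher in DRG NCSCs: Stmn2 was at 248 cpm in DRG NCSCs and 0.118 cpm in brain NSCs, and Snap25 at 35.0 and 4.25 cpm, although the summed level of the 7 was lower in DRG NCSCs (754 to 789 cpm against 976 to 991 cpm). Their part in these differences was not tested.

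Set against DRG NCSCs, Wnt1Cre-mTmG Tail pNSCs had 10 of 34 members higher and 14 lower, where 15.3% of all genes were called higher and 22.6% lower (37.9% in all), with a median of -0.09 against 0.00. Grm5 (7.91 ± 0.07), Gabrg1 (6.58 ± 0.07) and Gria2 (5.43 ± 0.08) were higher, and Gabra4 had 446 counts against 3 over the NCSC samples (142-fold, 48.1 to 689). Grm7 was 93.5-fold lower (31.6 to 456), and Grik1 (-4.00 ± 0.17) and Grik3 (-3.00 ± 0.07) fell. In DRG pNSCs, grown from the same kind of ganglia, 15 members were higher and 9 lower, where 15.1% of all genes were called higher and 23.3% lower (38.3% in all), with a median of 0.62 against 0.00; without NCSC replicate 3, 13 were higher and 9 lower. Grm5 (8.64 ± 0.07), Gabrg1 (6.55 ± 0.07) and Gria2 (4.92 ± 0.08) were higher there too, with Grm3 577-fold (225 to 2123) and Gabra4 295-fold (100.1 to 1433) higher. Grm7 had no counts and was at least 15.9-fold lower, and Gabrb2 (-3.65 ± 0.28), Gria1 (-3.34 ± 0.17) and Grik3 (-2.84 ± 0.07) fell. The 3 comparisons with DRG NCSCs share those samples.

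The neighbours on chromosome 5 differed in their levels, and any link with the sequences above was not tested. Gabrg1 stayed between 79.5 and 156 cpm in all NSC and pNSC samples. Gabra2, next to it, had means from 4.13 cpm in Sox2-GFP lung pNSCs to 66.3 cpm in Lung-pNSC, a span of 16.1 times. Gabra4 ran from 0.133 cpm in Tail-pNSC, at or under the floor, to 14.1 cpm in Wnt1Cre-mTmG DRG pNSCs. Gabrb1, which starts next to Gabra4 on the other strand, ran from 0.628 to 11.7 cpm, with its highest mean in Wnt1Cre-mTmG Tail pNSCs. In those Tail pNSCs Gabrb1 was higher than in brain NSCs while Gabra4 was not called (6.43, 8.0 and 6.29 against 13.1, 14.0 and 11.5 cpm, -0.89 ± 0.13). The 2 genes share 46 exon bases at their starts.

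The other genes of the 2 transmitter systems were taken from lists of transporters, enzymes, auxiliary subunits, scaffolds, ligands, chloride transporters and receptors outside the naming rule. Slc1a3 (GLAST) and Slc1a2 (GLT1) clear glutamate into glia, and Slc6a11 (GAT3) takes up GABA. Slc1a3 had means of 878 to 2321 cpm in these 8 groups. In Tail-pNSC against Brain-NSC, 5 of 9 tested transporters fell (6.59% of all genes did), with a median of -1.40, among them Slc1a2 (-2.0 ± 0.04), Slc1a1 (-1.86 ± 0.24), Slc1a6 (-1.40 ± 0.50) and Slc6a11 (-1.33 ± 0.03). In Lung-pNSC, 1 rose and 2 fell (4.56% and 4.15% of all genes), namely Slc1a2 (1.76 ± 0.03), Slc1a1 (-2.28 ± 0.25) and Slc6a11 (-2.10 ± 0.04). Slc6a11 also fell in Sox2-GFP lung pNSCs (-2.61 ± 0.02) and Wnt1Cre-mTmG DRG pNSCs (-1.87 ± 0.07). In DRG NCSCs against Wnt1Cre-mTmG brain NSCs, 4 of 10 transporters rose and 6 fell, against 22.1% and 14.8% of all genes. Slc17a6 (VGLUT2), which loads glutamate into synaptic vesicles, was at 62.0 cpm in DRG NCSCs and had no counts in the 3 brain NSC samples, whereas Slc1a3 was lower (-8.06 ± 0.05).

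Among 7 genes of transmitter synthesis and breakdown, Gad1, the main GABA-making enzyme, fell in Tail-pNSC (-3.38 ± 0.30) and rose in Lung-pNSC (1.38 ± 0.16), and was low throughout, at most 14.1 cpm. Glul, glutamine synthetase, fell in Tail-pNSC (-1.02 ± 0.03) and in Sox2-GFP lung pNSCs (-1.10 ± 0.02) and rose in Wnt1Cre-mTmG Tail pNSCs (1.29 ± 0.04). Of 16 auxiliary subunits, 14 were tested in the Nes-GFP fit: 5 fell in Tail-pNSC (6.59% of all genes), such as Shisa6 (-1.64 ± 0.21), and 3 rose and 1 fell in Lung-pNSC (4.56% and 4.15% of all genes), such as Gsg1l (2.45 ± 0.17). Wnt1Cre-mTmG Tail pNSCs had 4 higher and 6 lower of 16, against 9.16% and 9.05% of all genes, with Gsg1l at 4.25 ± 0.15 and Cacng5 at -5.64 ± 0.24. Scaffold genes, which hold receptors at synapses, had medians of -0.18 in Tail-pNSC and -0.01 in Lung-pNSC, and 3 of 15 fell in Wnt1Cre-mTmG Tail pNSCs (9.05% of all genes) and 3 of 16 in Sox2-GFP lung pNSCs (9.99% of all genes). Cbln1, a ligand of the delta receptors, rose in Tail-pNSC (3.05 ± 0.26) and in Wnt1Cre-mTmG DRG pNSCs (1.10 ± 0.16). The GABA-B subunit gene Gabbr2 fell in Sox2-GFP lung pNSCs, to 1.70 cpm from 68.3 cpm (-5.32 ± 0.08). Of the chloride transporters, Slc12a2 (NKCC1) was at 75.2 to 235 cpm and Slc12a5 (KCC2) at 2.15 to 6.08 cpm in the 8 NSC and pNSC groups, with log2 fold changes over brain NSCs of -0.46 to 0.41 and -0.62 to 0.69 in the 5 comparisons.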

How the data were processed

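The authors sequenced poly(A) RNA (NEBNext Ultra, single-end, strand not kept), aligned it to GRCm38 with HISAT2, annotated with Cufflinks and counted reads per gene with HTSeq; the deposited values are raw counts, 1 column for each of 28 samples, and their quantile normalization was not used here. How HTSeq treated reads in overlapping genes is not given in the sources used here: 30 of the 41 members are overlapped by another gene and 20 share exon bases with one (GENCODE annotation of GRCm38). Members and gene lists were chosen with earlier results of these data known.

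The counts were tested with edgeR 4.0.16 (quasi-likelihood test, TMM scaling, filterByExpr with a minimum count of 10 and total of 15, Benjamini-Hochberg over all genes tested), in 1 fit per experiment and 1 fit over all 28 samples for comparisons across experiments. A call required an adjusted p below 0.05 and a log2 change of 1 or more in either direction. Between 31 and 36 members passed the filter, and members that pass only through a group where they are high had to differ. The text names members with a group mean of at least 1 cpm and, within a comparison, called members of largest change whose samples did not overlap, up to 5 in each direction; others are named for their class or because a result turns on them. Some genes are counted among the members and lists but are not reported here by name. Folds against a group with no counts are lower bounds at 3 counts per library; with few counts, summed counts per library total were compared with an exact (Clopper-Pearson) 95% interval. On simulated data 200 of 200 genes changed by 2 on the log2 scale were recovered in Tail-pNSC against Brain-NSC, among 16217 genes, with 1 false call. The changed genes were drawn only from well-counted genes, with a fixed spread, so recovery at low counts was not tried. DESeq2 1.42.0 and other settings were alternatives. Counting error alone limits precision at low counts.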

Additional observations from a re-analysis of the deposited data

Results flagged for a closer look

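The members named here had an effect that differed between experiments by the test of the difference (edgeR, adjusted p under 0.05 and a difference of at least 1 on the log2 scale); values are the log2 fold change over brain NSCs in the second experiment minus that in the Nes-GFP experiment. For tail pNSCs, with Wnt1Cre-mTmG as the second experiment, the differences were Grin2c -7.60, Grin2a -6.32, Grm3 -3.51, Grin1 -1.70, Grm4 -1.66, Grik3 -1.55, Grik2 -1.24, Grin3a -1.18, Gabrg1 1.17, Grin2d 1.99, Gabrb1 2.55, Gria3 2.65, Gabra4 3.58, Gabrb2 4.14 and Gabrr2 5.33. For lung pNSCs, with Sox2-GFP as the second experiment, they were Gabrg3 -5.88, Grin2a -2.37, Gabra2 -2.29, Gabra4 -2.17, Gabrr2 -1.68, Grin3a -1.55, Grid1 -1.44, Grik4 -1.42, Grin1 -1.28, Gabrb1 -1.09, Grm3 1.11, Gria3 2.23 and Grin2c 2.67. The values of Gabra4, Gabrb2 and Gabrr2 for tail and of Gabrg3 for lung rest on a group with 3 counts or fewer in every sample and depend on the prior count. Group means near the floor also enter the values of Grin2c for tail and of Grin2c and Grin2a for lung. Leaving out 1 sample at a time, 17 to 19 members differed for tail and 13 to 16 for lung. For tail, the Gabrb2 difference was lost without Tail-pNSC replicate 1 or 2, Brain-NSC replicate 1, Wnt1Cre-mTmG Tail pNSC replicate 2 or Wnt1Cre-mTmG brain NSC replicate 1 (3.32 to 4.13), that of Grm4 without Brain-NSC replicate 1 (-1.17) and that of Grin2d without Brain-NSC replicate 2 (1.49). For lung, the Gabrb1 difference was lost without either Brain-NSC sample, Lung-pNSC replicate 1, Sox2-GFP brain NSC replicate 1 or Sox2-GFP lung pNSC replicate 2 or 3 (-1.20 to -0.67). The Gabrr2 difference was lost without Brain-NSC replicate 1, Lung-pNSC replicate 1, Sox2-GFP brain NSC replicate 3 or Sox2-GFP lung pNSC replicate 2 (-1.59 to -1.27), and that of Grik4 without Lung-pNSC replicate 2 (-1.17). Dixon's test for 1 outlying sample was not used, since it needs groups of 4 or more.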

How the results depend on the processing

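Of 306 calls of members over the 16 comparisons, none changed sign under any alternative run, and 45 were lost under at least 1. Of 3491 alternative values, 3366 stayed called: upper-quartile scaling lost 2 calls, no low-count filter 4, DESeq2 11, a fit of only the groups compared 4 and 1 fit over all 28 samples 1. With no limit on the fold change, the number of members called rose from 10 to 18 (Wnt1Cre-mTmG DRG pNSCs vs Wnt1Cre-mTmG brain NSCs), 16 to 29 (Sox2-GFP lung pNSCs vs Sox2-GFP brain NSCs), 17 to 30 (Wnt1Cre-mTmG brain NSCs vs Brain-NSC), 14 to 25 (Sox2-GFP brain NSCs vs Brain-NSC) and 13 to 27 (Wnt1Cre-mTmG brain NSCs vs Sox2-GFP brain NSCs), since smaller changes then count. Without 1 replicate each, counts stayed within 1.5 times the full count in all 16 comparisons, and 96 of 1748 values of single calls were lost. Samples of the same replicate number did not vary together, with correlations of their deviations between -0.05 and 0.10. The study's reporting summary gives brain NSCs of the same mice as the control in most cases. The replicate numbers cannot show which samples share donors. The fit with the replicate number as a block lost 7 of 306 calls, and its counts ran from 10 to 28 members, as in the fits without it. The number of members at 1 cpm or more was 36 under each scaling. Genes under about 0.3 cpm could not be read at these depths.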
